A study of Homo sapiens with 3 samples.

Results

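Ribosome biogenesis factors are the proteins that build ribosomes and are not themselves part of the finished particle. A list of 60 such genes was followed in DLD1 cells, an established human line from a colon cancer. The cells had received a control siRNA, or 1 of 2 siRNAs directed at the imprinted long noncoding RNA H19. Genes were taken by their symbol in the platform's annotation, which gave 56 of the 60 a probe set of their own, out of 22465 genes named in the series. The list was drawn up after MAK16 and WDR43 had been seen among the genes lowest with both siRNAs, so its differences from control are given as a description and carry no test. DKC1 and NOP56 lay only on probe sets shared with other genes, and GNL3 and DDX18 were under no symbol in the annotation used here.

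Ribosomes are assembled in the nucleolus, where RNA polymerase I transcribes a long precursor RNA that is folded, modified, cut and loaded with ribosomal proteins. Small nucleolar ribonucleoproteins (snoRNPs) guide the chemical modification of that precursor, the small-subunit processome forms around its first-transcribed part, and separate factors assemble the large subunit. Growing and cancerous cells depend on a high output of this pathway, which MYC is known to drive.

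The study comprised 3 Affymetrix whole-transcript arrays, 1 for each condition: control siRNA, siH19-1 and siH19-2. All cells were DLD1, transfected with 50 nM siRNA by a lipid reagent, and 500 ng of total RNA was labelled with biotin per array. The transfection lasted 48 hours by the protocol and 24 hours by the series' design text, and which is right was not settled. The siRNA sequences were not used here, and a single cell line limits what the arrays can represent. With 1 array per condition no difference has a replicate check, which limits how precise any value here can be. A difference is therefore called lower or higher only by its size, at least 1.5-fold, which is 0.585 on the log2 scale of the deposited signal. In RNA from whole cultures, fewer expressing cells and less RNA per cell cannot be told apart.

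The targeted transcript shared its probe set with MIR675, the microRNA gene it hosts. That probe set read 7.88 (log2 signal) on the control array, 7.74 on the siH19-1 array and 7.37 on the siH19-2 array. Both siRNA arrays were below control, at 90.8% and 70.2% of its signal, and neither by 1.5-fold. Colon epithelial markers were mixed: 7 of 12 passed the signal minimum (a mean log2 signal of 5), among them EPCAM, KRT8, KRT18 and CDX2, while KRT20, CDX1, VIL1, LGALS4 and GPA33 lay below it. No fibroblast marker passed (0 of 9 measured), and of 12 leukocyte and endothelial markers 1 did, CD68. The 7 did not differ one way: their medians were 0.18 with siH19-1 and 0.19 with siH19-2. EPCAM, an epithelial adhesion protein, was at 14.74, 14.70 and 13.02 on the control, siH19-1 and siH19-2 arrays, low on the last alone. CDH1, E-cadherin, was at 10.27, 12.10 and 12.23, high on both siRNA arrays, and CDH17 was at 0.17 and 0.62 from control. KRT8, KRT18, KRT19 and CDX2 were within 0.28 of control with both siRNAs. The part of such differences in the results below was not tested.

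Promoter sequences were examined for the E-box CACGTG, the site bound by MYC with its partner MAX, a motif that played no part in choosing the genes. In RefSeq windows (build GRCh38.p14) from 250 bases before to 50 bases after each gene's start, 52 of the 60 genes were listed, and 18 of these, or 34.6%, held at least 1 E-box. Among the 49 with a measured level the share was 36.7%, against 10.8% of 7271 compared genes and 7.43% of all 27305 promoters. The ETS core CCGGAAG, searched on both strands and overlapping an E-box in none of these genes, was in 49.0% of the 49 and in 22% of the compared genes. The E-box reads the same on both strands, and a match describes these letters, not a bound site.

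The sequences around the E-box are shown for 4 genes whose RNA was at least 1.5-fold lower with siH19-2 (WDR43, NOL6, UTP20 and PNO1) and for 4 that were not (UTP4, FBL, NOP10 and GNL2). Each runs 5′ to 3′ on the gene's own strand, the capitals mark the E-box, and no more than 30 bases after the gene start are included.
WDR43, chr2:28894640-28894696, plus strand: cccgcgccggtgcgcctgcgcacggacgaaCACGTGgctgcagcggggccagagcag
NOL6, chr9:33473895-33473941, minus strand: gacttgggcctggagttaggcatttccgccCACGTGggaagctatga
UTP20, chr12:101280065-101280130, plus strand: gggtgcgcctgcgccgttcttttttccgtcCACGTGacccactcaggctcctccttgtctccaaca
PNO1, chr2:68157867-68157917, plus strand: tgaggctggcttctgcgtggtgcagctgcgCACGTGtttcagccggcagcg
UTP4, chr16:69132603-69132668, plus strand: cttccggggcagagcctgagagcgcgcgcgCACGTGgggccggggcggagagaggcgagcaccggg
FBL, chr19:39846350-39846403, minus strand: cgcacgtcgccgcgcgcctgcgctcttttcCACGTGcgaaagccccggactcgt
NOP10, chr15:34343112-34343177, minus strand: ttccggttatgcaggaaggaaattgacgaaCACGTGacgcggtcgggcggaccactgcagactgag
GNL2, chr1:37595908-37595964, minus strand: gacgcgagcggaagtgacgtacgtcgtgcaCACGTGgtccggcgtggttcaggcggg

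The E-box began at base 4 after the start in WDR43 and GNL2, 7 in FBL, 10 in PNO1 and 14 in NOL6, counting the start as 1. It began at -10 in UTP20, -11 in NOP10 and -16 in UTP4. Most of the matches thus lay close to the gene start, as the plot of E-box positions shows.

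**Figure D1:**
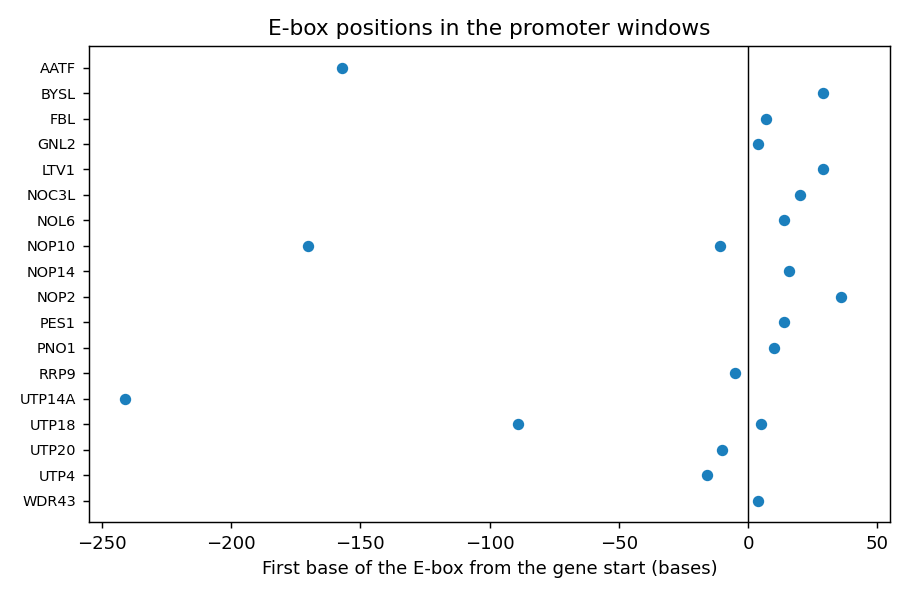
Position of each CACGTG match in the promoter windows of the 18 ribosome biogenesis genes that hold one. The x axis is the first base of the match from the gene start in bases (the vertical line), and each row is a gene. The matches farthest from the start were at -241 in UTP14A, -170 in NOP10 and -157 in AATF.

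All 56 measured genes passed the signal minimum. The median difference was -0.22 with siH19-1 and -0.55 with siH19-2, against -0.06 and -0.07 over the 9630 compared genes. With siH19-1, 4 of the 56 were at least 1.5-fold lower and 0 higher, where 2.63% of all compared genes were lower and 1.58% higher. With siH19-2, 23 of the 56 (41.1%) were lower and 0 higher, where 8.95% and 2.94% of all genes were. At any size, 45 were below control with siH19-1 and 53 with siH19-2, where 61.9% and 58.4% of all genes were. Both differences share the control array, and 45 of the 56 were below it with both, against 45.6% of all compared genes. Scaling moved the balance over all genes: with siH19-2, 12.5% were lower and 1.92% higher after median centring. With siH19-1 those shares were 3.69% and 1.11%. After quantile normalization over the compared genes, chosen after seeing the data, 11 were lower with siH19-2, where 5.81% of all genes were lower and 4.86% higher, and the members' medians were -0.13 and -0.40.

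**Figure D2:**
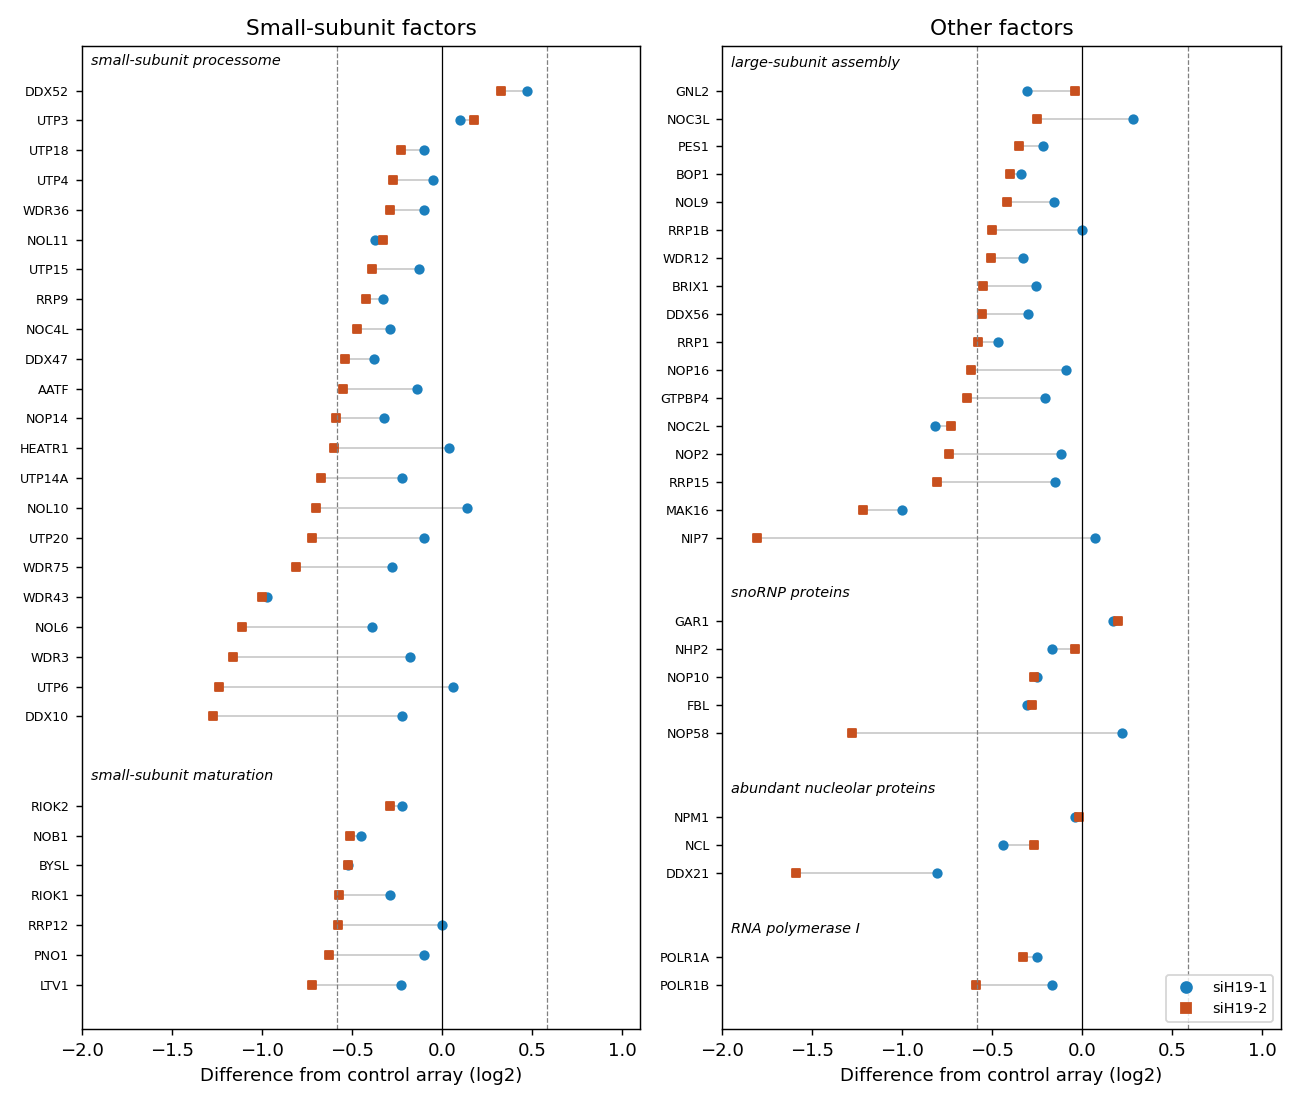
Difference from the control array (log2, x axis) of the 56 measured genes, grouped by role and ordered by the siH19-2 value. Circles are siH19-1 and squares siH19-2, 1 array each, and dashed lines mark 1.5-fold. All but 3 squares lie left of 0, and 23 lie past the left dashed line.

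MAK16, WDR43, DDX21 and NOC2L were at least 1.5-fold lower with both siRNAs, where 1.09% of all compared genes were. MAK16 and WDR43 had been seen to be low with both before the list was drawn up. Their place among these genes was therefore set beforehand, and the count cannot be weighed against that share. None of the listed genes was higher with both, where 0.685% of all genes were. MAK16, a factor of early large-subunit particles, read 11.25 on the control array, 10.25 on the siH19-1 array and 10.03 on the siH19-2 array (log2 signal). The control array was the high one and the siRNA arrays lay close together, at 50.0% and 42.9% of the control signal. WDR43, a WD-repeat protein of the processome, was at 12.89, 11.92 and 11.89, so the siRNA arrays read 51.1% and 50.0% of control and differed from each other by 0.03. NOC2L, a large-subunit factor that also inhibits histone acetyltransferases, was at 9.57, 8.75 and 8.84, with the siRNA arrays 0.09 apart. DDX21, a DEAD-box RNA helicase of the nucleolus that binds RNA polymerase I genes and snoRNAs, was at 14.42, 13.61 and 12.83, with the siH19-2 array well below the siH19-1 array, or 57.0% and 33.2% of control. After quantile normalization over the compared genes NOC2L was at -0.57 with siH19-2, which left 3 genes lower with both. No gene of the list was lower with siH19-1 alone, and 19 were lower with siH19-2 alone. Of all compared genes, 2.63% were lower with siH19-1, 8.95% with siH19-2 and 1.09% with both. Few of all genes were thus lower with siH19-1 alone either.

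The small-subunit processome is the large particle that forms on the 5′ part of the precursor and cleaves out the small-subunit RNA. Of its 22 genes, 11 were at least 1.5-fold lower with siH19-2 and 1, WDR43, with siH19-1, where 8.95% and 2.63% of all compared genes were. The medians were -0.57 with siH19-2 and -0.16 with siH19-1. In the UTP-A complex, which binds the precursor first and is needed for its transcription, WDR43 was joined by WDR75 (-0.28 with siH19-1 and -0.81 with siH19-2) and HEATR1 (0.04 and -0.60). HEATR1 no longer reached 1.5-fold after quantile normalization (-0.52) or cyclic loess (-0.55). The other UTP-A subunits were under 1.5-fold from control with both siRNAs: UTP15 at -0.13 and -0.39, NOL11 at -0.37 and -0.33, and UTP4 at -0.05 and -0.27.

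The UTP-B complex joins after UTP-A, and 4 of its subunits are among the 56 genes. UTP6 had log2 signals of 9.92, 9.98 and 8.68 on the control, siH19-1 and siH19-2 arrays, and WDR3 had 11.59, 11.41 and 10.43. For both, the siH19-2 array was the low one, at 42.3% of control for UTP6 and 44.8% for WDR3. WDR36, in which variants have been linked to glaucoma, was at -0.10 and -0.29 and UTP18 at -0.10 and -0.23. The UTP-B subunits PWP2 (-0.54 and -0.65) and TBL3 (-0.29 and -0.51) were on the list of further factors, and PWP2 was past 1.5-fold with siH19-2. With siH19-2 the SD between subunits was 0.544 over the 4 of UTP-B and 0.291 over the 6 of UTP-A. The order was the other way with siH19-1, at 0.101 for UTP-B and 0.364 for UTP-A. PWP2 and TBL3 are not in these SDs. Between probe sets of the same gene the SD was 0.295 with siH19-2 and 0.233 with siH19-1. UTP-A with siH19-2 and UTP-B with siH19-1 did not exceed that. The UTP-A SD with siH19-1 includes WDR43, at -0.97 the lowest of its subunits.

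Among the other processome genes, DDX10, a DEAD-box helicase, was at 11.76, 11.54 and 10.49, and NOL6, a scaffold protein of the particle, was at 6.60, 6.21 and 5.49. In each the control and siH19-1 arrays lay nearer to each other than to the siH19-2 array, which read 41.5% of control for DDX10 and 46.3% for NOL6. UTP20 (-0.10 and -0.72), NOL10 (0.14 and -0.70) and UTP14A (-0.22 and -0.67) were lower with siH19-2 too. NOP14, a partner of the cleavage machinery, was just past the threshold at -0.59. UTP14A and NOP14 no longer reached it after quantile normalization (-0.56 and -0.50), and with that done over the compared genes UTP20 (-0.51) and NOL10 (-0.54) did not either. AATF (-0.14 and -0.55), DDX47 (-0.38 and -0.54), NOC4L (-0.29 and -0.47) and the U3 snoRNP protein RRP9 (-0.33 and -0.42) did not reach 1.5-fold. UTP3 (0.10 and 0.18) and the helicase DDX52 (0.47 and 0.33) were above control with both siRNAs.

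The factors that mature the pre-40S particle on its way to the cytoplasm lay close together with siH19-2. Their 7 differences with siH19-2 ran from -0.72 to -0.29, with an SD of 0.133 and a median of -0.57. With siH19-1 they ran from -0.52 to 0.00, with an SD of 0.183 and a median of -0.23. Both SDs are smaller than those between probe sets of the same gene, 0.295 with siH19-2 and 0.233 with siH19-1. LTV1, which must leave the particle before it can mature, was at 11.27, 11.04 and 10.55, with the siH19-2 array the low one at 60.7% of control. PNO1 (-0.10 and -0.63), a partner of the nuclease NOB1, was the other gene past the threshold, though not after quantile normalization (-0.53). With that done over the compared genes LTV1 did not reach it either (-0.51). BYSL, the human counterpart of yeast Enp1, was at 6.33, 5.81 and 5.81, and NOB1, the nuclease that makes the final cut in small-subunit RNA, was at 13.40, 12.95 and 12.89. In BYSL and NOB1 the siRNA arrays were nearly equal and the control array was the high one. RRP12, an export factor, was at 0.00 and -0.58, just short of the threshold, and the atypical kinases RIOK1 (-0.29 and -0.57) and RIOK2 (-0.22 and -0.29) did not reach it.

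Over 17 large-subunit factors the siH19-1 median was -0.22 and the siH19-2 median -0.56. With siH19-1 2 of them and with siH19-2 7 were at least 1.5-fold lower, where 2.63% and 8.95% of all compared genes were. NIP7, which binds the precursor RNA and acts in its processing, differed most between the siRNAs: 11.78 with control, 11.85 with siH19-1 and 9.97 with siH19-2. Its signal with siH19-2 was 28.5% of control, with 33 of all 9630 genes further below control, and the control and siH19-1 arrays were 0.07 apart. RRP15 (-0.15 and -0.81), the RNA methyltransferase NOP2 (-0.12 and -0.74), the GTPase GTPBP4 (-0.21 and -0.64) and NOP16 (-0.09 and -0.62) were lower with siH19-2 as well. GTPBP4 and NOP16 missed 1.5-fold after quantile normalization (-0.55 and -0.57) and cyclic loess (-0.58 and -0.58), and NOP2 after quantile normalization over the compared genes (-0.53).

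The PeBoW complex, made of PES1, BOP1 and WDR12, is needed to process the large-subunit RNA, and its subunits differed little from each other. PES1 was at -0.22 and -0.35, BOP1 at -0.34 and -0.40, and WDR12 at -0.33 and -0.51, with SDs of 0.067 and 0.082 between the 3 genes. A second BOP1 probe set gave -0.49 and -0.60, so BOP1 was past the threshold with siH19-2 by that probe set and not by the other. The SDs above leave the second probe set out. They are smaller than the SDs between probe sets of the same gene, 0.233 with siH19-1 and 0.295 with siH19-2. RRP1 (-0.47 and -0.58), DDX56 (-0.30 and -0.56), BRIX1 (-0.26 and -0.55), RRP1B (0.00 and -0.50) and the RNA kinase NOL9 (-0.16 and -0.42) were also under 1.5-fold from control with both siRNAs. NOC3L (0.28 and -0.25) was above control with siH19-1, and the GTPase GNL2 (-0.31 and -0.04) was at control level with siH19-2.

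Proteins of the snoRNPs were uneven. Box C/D snoRNPs guide ribose methylation, and their core protein NOP58 was at 13.96 with control, 14.18 with siH19-1 and 12.68 with siH19-2, so the siH19-2 array alone was low, at 41.2% of control. FBL, fibrillarin, the methyltransferase of the same particle, was at 12.12, 11.81 and 11.84, with the siRNA arrays close together. The probe set shared by NOP56 with the snoRNA and microRNA genes of its introns, 7 symbols in all, was at 9.67, 9.47 and 9.16. Box H/ACA snoRNPs guide pseudouridylation, and their small proteins were near control: NOP10 at 13.63, 13.38 and 13.36, NHP2 at 6.36, 6.19 and 6.32, and GAR1 at 7.76, 7.93 and 7.96. Their differences lay between -0.27 and 0.20, all under 1.5-fold. The probe set shared by DKC1, the pseudouridine synthase of these particles, with SNORA56, SNORA36A and MIR664B was at 11.48, 10.93 and 10.38, which cannot be given to DKC1 alone.

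Among the abundant nucleolar proteins, NCL, nucleolin, was at 15.96, 15.52 and 15.69, and NPM1, nucleophosmin, was at 15.31, 15.27 and 15.29, beside DDX21 above. NPM1 was thus within 0.04 of control on both siRNA arrays, whereas DDX21 was at -1.59 with siH19-2. The large catalytic subunits of RNA polymerase I were POLR1A, at 10.20, 9.95 and 9.87, and POLR1B, at 9.13, 8.96 and 8.54. POLR1B was 0.59 below control with siH19-2, just past the threshold, and at -0.50 after quantile normalization, while POLR1A was under 1.5-fold from control with both.

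The DEAD-box helicases, enzymes that remodel RNA with ATP, cut across these roles. With siH19-2 they ranged from DDX21 (-1.59) and DDX10 (-1.27) through DDX56 (-0.56) and DDX47 (-0.54) to DDX52 (0.33). The threshold itself separated near-equal values: POLR1B and NOP14 (-0.59) were counted with siH19-2, and RRP1 and RRP12 (-0.58) were not. With siH19-1 there was a gap, from DDX21 at -0.81 to BYSL at -0.52.

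The siH19-2 array against the siH19-1 array leaves the control out. On it, 46 of the 56 genes were lower with siH19-2, 9 were higher and BYSL was equal, and the median was -0.26, against 0.00 over all compared genes, of which 48.8% were lower. After quantile normalization over the compared genes these medians were -0.17 and 0.02. At least 1.5-fold lower were 12 genes, where 5.7% of all compared genes were: NIP7 (-1.88), NOP58 (-1.50), UTP6 (-1.30), DDX10 (-1.05), WDR3 (-0.98), NOL10 (-0.84), DDX21 (-0.78), NOL6 (-0.72), RRP15 (-0.66), HEATR1 (-0.64), UTP20 (-0.62) and NOP2 (-0.62). No gene of the list was at least 1.5-fold higher with siH19-2 than with siH19-1, where 2.51% of all genes were. MAK16 (-0.22), WDR43 (-0.03) and NOC2L (0.09), lower than control with both, differed little between the siRNAs.

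**Figure D3:**
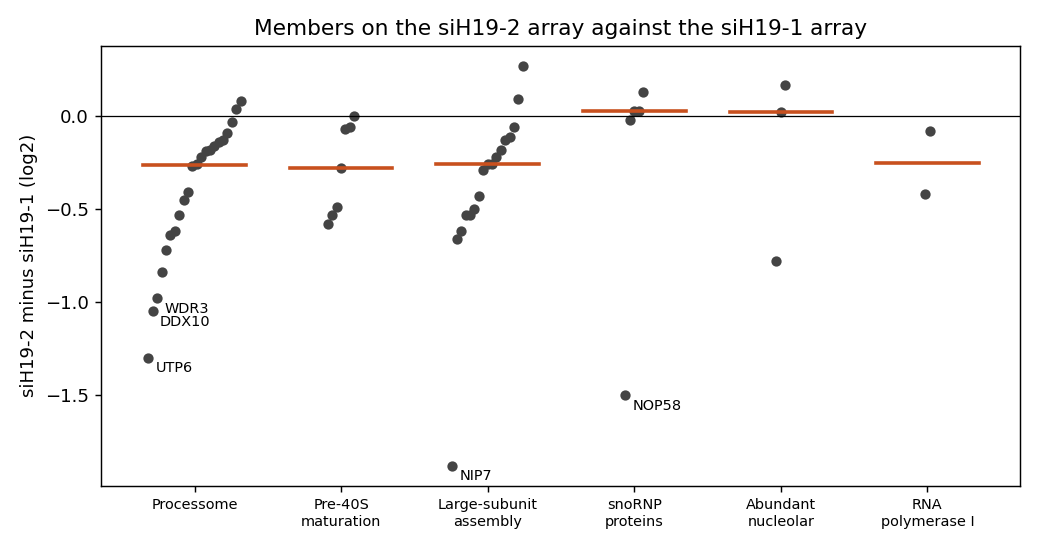
Difference of the siH19-2 array from the siH19-1 array (log2, y axis) for the 56 genes by role; each point is a gene, horizontal bars are group medians, and the 5 lowest genes are named. NIP7 and NOP58 lie apart from the other genes of their groups.

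Several of these genes carry snoRNA genes in their introns, and the snoRNAs were set beside their hosts. RefSeq placed all 18 snoRNAs of a list of 6 hosts inside the host gene, and 8 of them had a probe set of their own under a host that had one too. SNORD70, in NOP58, was at 9.01, 9.62 and 8.09, SNORD11 at 9.50, 9.66 and 8.99, and SNORD11B at 7.54, 8.05 and 7.27, highest with siH19-1 and lowest with siH19-2 in each case, as in the host. WDR43's snoRNAs were below control on both siRNA arrays, as the host was: SNORD53 was at -0.52 and -0.62, and SNORD92 at -0.18 and -0.61. The SNORD92 signals were 5.69, 5.51 and 5.08, near the signal minimum of 5. NCL's snoRNAs were not below control, unlike the host: SNORD20 was at 0.06 and 0.28, SNORD82 at 0.03 and 0.08, and SNORA75 at 0.56 and 0.37. SNORD82 had a log2 signal above 16, where the scale of the deposited values is not understood. For GNL3, which has no value here, SNORD19 was at -0.27 and -1.0 and SNORD69 at 0.22 and -0.06. The SNORD19 signals were 5.90, 5.63 and 4.90, so the last lay below 5. Whether a snoRNA probe set also reads the unspliced host RNA was not tested.

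**Figure D4:**
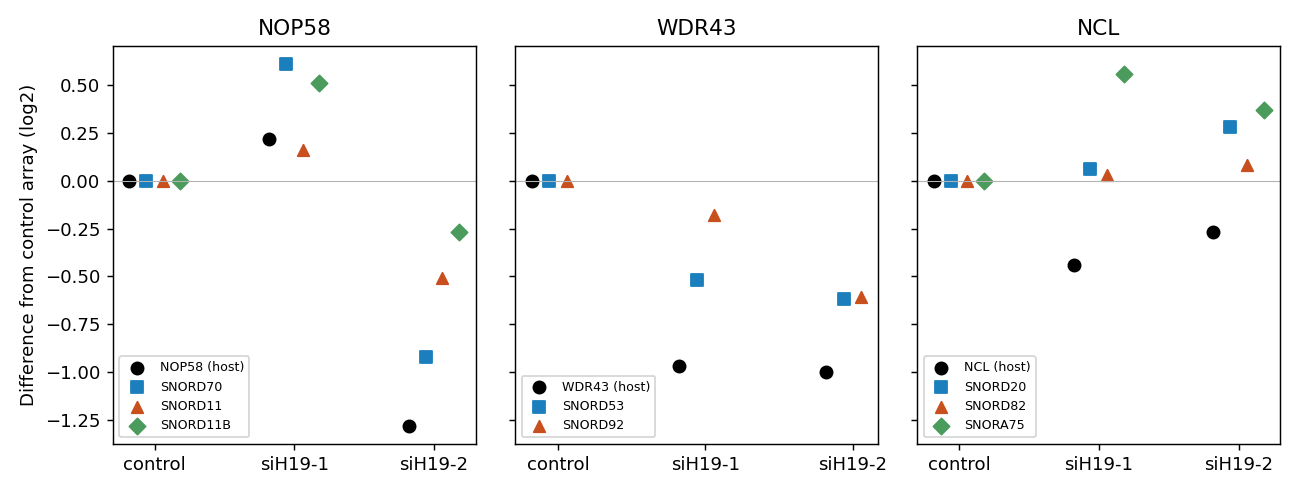
Difference from the control array (log2, y axis) of 3 host genes (black circles) and the snoRNAs in their introns (coloured) on each array, which is at 0 for control by definition. NOP58 and its snoRNAs are above control with siH19-1 and below it with siH19-2, and NCL's snoRNAs lie above their host on both siRNA arrays.

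The 18 genes with an E-box had a siH19-1 median of -0.225 and a siH19-2 median of -0.535, and the 31 without one had -0.22 and -0.55. With siH19-2, 8 of the 18 and 12 of the 31 were at least 1.5-fold lower. Among all compared genes 12.4% of 785 with an E-box and 9.08% of 6486 without one were. MYC was at 9.59 with control, 9.62 with siH19-1 and 8.51 with siH19-2, so it was 1.08 below control on the siH19-2 array alone. Of the MYC network, 8 of 11 measured genes were compared and MLX (-0.16 and -0.98) was the other one past the threshold. The median of the network was -0.06 and -0.13, with MLXIP at -0.46 and -0.48, and MGA (0.19 and 0.18), MXI1 (-0.06 and 0.10) and MNT (0.04 and -0.03) the highest. The part of MYC in the differences of the ribosome biogenesis genes was not tested.

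Other genes of the pathway were taken from lists by function. Of 71 further biogenesis factors compared, 6 (8.45%) were at least 1.5-fold lower with siH19-1 and 26 (36.6%) with siH19-2. Of all compared genes 2.63% and 8.95% were. None of the 71 was higher with either, and the medians were -0.22 and -0.48. The lowest over both siRNAs were TSR3 (-0.75 and -0.76), which modifies small-subunit RNA, ABT1 (-0.82 and -0.65) and RRP36 (-0.82 and -0.61), and these were also the 3 that were lower with both. The highest were MPHOSPH10 (0.15 and -0.04), KRR1 (0.20 and -0.10) and RSL1D1 (0.14 and -0.15). SBDS, which acts with a GTPase to release eIF6 from new large subunits, was named after its values were seen: it was at 10.72, 10.93 and 9.15, low on the siH19-2 array alone. NGDN (-1.09 and -0.33), DDX54 (-0.89 and -0.43) and RRP8 (-0.62 and -0.49) were below control with both siRNAs but past 1.5-fold with siH19-1 alone.

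Assembly factors of the snoRNPs had medians of -0.24 and -0.40 over 11 genes. Of these, 1 was lower with siH19-1 and 2 with siH19-2, where 2.63% and 8.95% of all compared genes were. The 1 was NOLC1 (-0.64 and -0.18), and the 2 were RUVBL1 (-0.35 and -0.77) and SHQ1 (-0.06 and -0.60). RUVBL2, the partner ATPase of RUVBL1, was at -0.40 and -0.52, and ZNHIT3 (-0.19 and 0.12), SNU13 (-0.05 and -0.24) and ZNHIT6 (0.06 and -0.42) were the highest of the list. Of 12 further RNA polymerase I genes, 0 were lower with siH19-1 and 3 with siH19-2, against the same shares of all genes. RRN3, the initiation factor that makes the polymerase competent to start, was at 9.57, 9.57 and 8.24, and the subunit genes POLR1F (-0.49 and -0.87) and POLR1E (-0.38 and -0.84) were the others. The initiation factor subunits TAF1B (-0.06 and -0.13) and TAF1A (0.33 and -0.23) and the shared subunit POLR1D (0.21 and 0.08) were the highest. On lists this short the siH19-1 counts of 1 and 0 cannot be set apart from the share over all genes.

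The proteins of the ribosome itself were set beside these factors, taken by the form of their symbols (RPL, RPS or RPSA, and MRPL or MRPS for mitochondria). Genes without a probe set of their own are left out, and the cytosolic pattern can admit related genes. Of 56 cytosolic ribosomal protein genes so found, 51 were compared, with medians of -0.06 and -0.09. These 51 ranged from -0.50 to 0.20 with siH19-2, and 0 of them were past 1.5-fold with either siRNA. Their mean log2 signals ran from 5.03 to 17.18, in part above 16, where the scale of the deposited values is not understood. The 71 mitochondrial ribosomal protein genes compared had medians of -0.19 and -0.22. With siH19-1, 6 of them (8.45%) were lower, where 2.63% of all compared genes were, and with siH19-2, 7 (9.86%), where 8.95% were. The difference between these groups and the biogenesis factors was not tested, since each condition had 1 array.

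**Figure D5:**
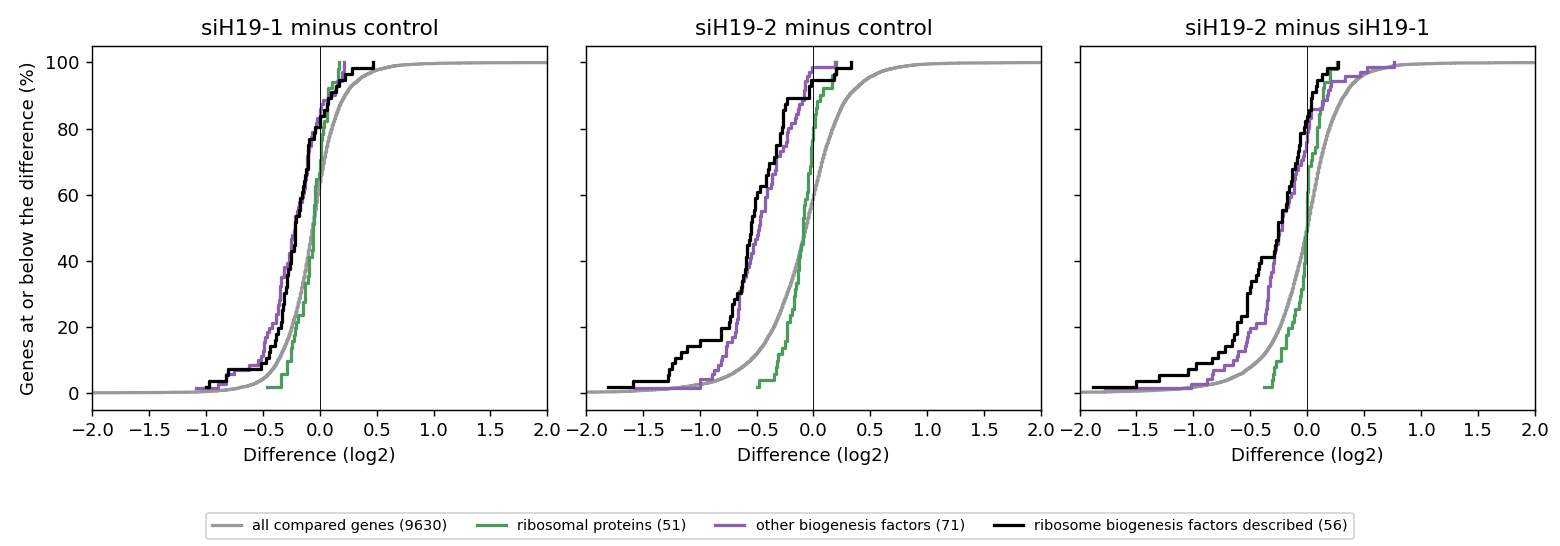
Cumulative share of genes (%, y axis) at or below each log2 difference (x axis, shown from -2 to 2) for the 56 ribosome biogenesis factors, 71 other biogenesis factors, 51 ribosomal protein genes and all 9630 compared genes, in 3 comparisons of single arrays. With siH19-2 the curves of the biogenesis factors (medians -0.55 and -0.48) lie left of those of the ribosomal proteins (-0.09) and all genes (-0.07).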

How the data were processed

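The authors deposited 1 table of log2 signals for the 3 arrays, made with Affymetrix Expression Console and RMA per the submitters' processing notes; their versions and the build are not given in sources used here. Values reached 19.93, above the 16 of a 16-bit scanner, so a fold is a fold on the deposited scale. The platform annotation gave 1 symbol to 23781 of 67528 probe sets; for genes with several, the highest mean over the arrays was used, and 9630 genes with a mean of at least 5 were compared. Detection calls were not used here. Differences were called at 1.5-fold with no p-value, since each condition had 1 array. The members and gene lists were chosen with earlier results of these data known. By the naming rule, every array is given for members 1.5-fold from control the same way with both siRNAs or higher with either, for the 3 of each role group with the largest mean size of both differences (2 in groups under 5), and for H19 and MYC; each other pathway list gives its 3 lowest and 3 highest genes. Other genes and snoRNAs were named after their values were seen. Python 3.11.15 (numpy 2.4.6, pandas 2.3.3, matplotlib 3.10.9) and limma 3.58.1 in R 4.3.3, for the alternative scalings, were used. The fold rule was run on simulated data with added differences well past the threshold and little noise. That checks the code and does not test the 1.5-fold calls made here.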

Additional observations from a re-analysis of the deposited data

Results flagged for a closer look

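For 6 genes the siRNAs lay on opposite sides of the control array, 1 array each, so the difference was not tested. NIP7 was at 0.07 with siH19-1 and -1.81 with siH19-2, NOP58 at 0.22 and -1.28, and UTP6 at 0.06 and -1.24. NOL10 was at 0.14 and -0.70, HEATR1 at 0.04 and -0.60, and NOC3L at 0.28 and -0.25. All siH19-1 values of these genes were under 1.5-fold. All but that of NOC3L were also within 0.233, the SD between probe sets of the same gene.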

How the results depend on the processing

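The alternatives were median centring, quantile normalization and cyclic loess of the arrays, no signal minimum or a minimum of 7, the mean of all probe sets and a 2-fold threshold, with quantile normalization over the compared genes added after seeing the data. At 2-fold, 1 gene (MAK16, exactly 2-fold) was lower with siH19-1, 9 with siH19-2 and 1 with both. Of all compared genes 0.467%, 2.62% and 0.0727% were, and MAK16 had been seen before the list was drawn up. With quantile normalization over the compared genes 11 were lower with siH19-2 and 3 with both, where 5.81% and 0.572% of all genes were. Under the other alternatives the number lower with siH19-2 ran from 16 (quantile normalization) to 34 (median centring). Of all compared genes 7.63% and 12.5% were lower with siH19-2 under those settings. Median centring moved the siH19-2 median of all compared genes from -0.07 to -0.17. The number lower with siH19-1 and with both stayed at 4, where 1.22% to 3.69% and 0.485% to 1.82% of all genes were. Under these alternatives 0 were higher with either. The median ran from -0.28 to -0.13 with siH19-1 and from -0.65 to -0.40 with siH19-2, and between the siRNAs from -0.30 to -0.17. A minimum of 7 left 48 of the 56 genes. Between probe sets of the same gene (70 genes) the SD of the difference was 0.233 (siH19-1) and 0.295 (siH19-2). No paired analysis was possible because each condition had 1 array.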
